A study of Mus musculus with 6 samples.

Results

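The genes described here are the expressed noncoding RNA genes of mouse neuromesodermal progenitor (NMP) cells, and the question is how their transcript levels differed after a short exposure to retinoic acid (RA). They were chosen by annotation and by level. Every transcript of the gene carries a RefSeq noncoding accession (NR), and the longest transcript has at least 200 bases. The symbol does not begin with Mir, Snor, Scarna, Rn or Rny. This takes out microRNA, small nucleolar, Cajal body and ribosomal RNA genes, and any other gene so named. The gene had a mean of at least 1 RPKM (reads scaled to transcript length and library size) and at least 600 estimated counts summed over the 6 samples. The selection also takes out 2 further genes by name, which are not reported here, so the members are not all the expressed long noncoding RNAs of these cells. This left 238 of 1906 noncoding candidates, among 20631 genes in the files. Because level chose the members, their levels are given as a description. The mean ran over all 3 conditions, and 236 of the 238 also had a mean of at least 1 RPKM in the DMSO samples taken alone.

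Long noncoding RNAs are transcribed and often spliced like messenger RNAs but are not translated into a known protein, and many lie antisense to, or share a bidirectional start with, a coding gene. Some are precursors of small RNAs, some regulate imprinted or X-linked genes in cis, and for many no function is known. RA is a ligand of nuclear receptors that bind RA response elements (RAREs), and in the caudal embryo it acts on bipotent NMPs, which give rise to spinal cord and to paraxial mesoderm.

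NMPs were derived from mouse embryonic stem cells (ESCs) of 1 line by 2 days in bFGF and 1 day in bFGF with the WNT agonist CHIR99021. bFGF and CHIR99021 were then removed, and the cells were kept for 2 h in medium free of retinoids with DMSO, 25 nM RA or 1 µM RA, in duplicate. The sample labels give the strain as 129 R1, whereas the methods of the study name a C57BL/6 line, and neither source gives a transgene or mutation. The ESCs had been grown on feeder cells, and the duplicates are separate culture dishes, named technical replicates in the methods, so all p-values measure the spread between dishes of 1 line. Both RA groups were compared with the same DMSO pair, so the results of the 2 doses are not independent.

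Total RNA was depleted of ribosomal RNA and sequenced to between 31753556 and 42029348 estimated counts per sample, of which the members held 2.44% to 2.58%. The NMP marker *T* stood at 367 to 380 RPKM, *Sox2* rose from 5.20 and 5.21 RPKM in DMSO to between 15.2 and 17.3 RPKM in the 4 RA samples, and *Cdx4* was at or below 0.09 RPKM throughout. Of the 7 listed NMP markers, 4 were called higher and 1 lower at 25 nM, and 3 higher and 1 lower at 1 µM. The background over all genes tested was 8.05% and 19.7%. The lower one was *Fgf8*, at 59.4 and 57.3 RPKM in DMSO, 51.6 and 49.9 RPKM at 25 nM and 51.2 and 46.7 RPKM at 1 µM. The committed neural markers *Sox1* and *Pax6* summed to 0.25 to 0.30 RPKM. Markers of other cell types moved with the dose: the presomitic pair *Tbx6* and *Msgn1* summed to 36.0 RPKM in both DMSO samples, 24.8 and 27.6 RPKM at 25 nM, and 19.9 and 21.4 RPKM at 1 µM, and the endoderm pair *Sox17* and *Foxa2* to 20.7 and 21.6, 15.6 and 15.7, and 13.1 and 13.3 RPKM. The 7 feeder fibroblast markers summed to 5.26 to 6.27 RPKM, with *Lum* at or below 0.03 RPKM, and 3 of the 7 were lower at 1 µM. In bulk samples fewer cells of a type and less RNA per cell cannot be told apart, and the part of these shifts in the changes given next was not tested.

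The label long noncoding RNA covers a mixed group. RefSeq lists 154 of the members as lncRNA and 52 as transcribed pseudogenes. Another 25 have no entry in the table used, and a few are structural RNAs. By position on the mouse genome (mm10, with GENCODE exons), 34 lie for at least 50% of their bases on exons of a coding gene on the same strand, 45 are antisense to coding exons, 38 are pseudogenes away from coding exons, 6 are catalytic or structural RNAs and 115 are other long noncoding RNAs. Among the 34 on coding exons, 11 carry a symbol that GENCODE itself lists as coding, and 21 lie on a coding gene of another symbol present in the files. RefSeq lists 1 member as protein coding. Of all members, 148 touch no coding exon on either strand. For 14 of the members on coding exons, RefSeq places the accession at another locus, so the mm10 positions in the files are those of the coding parent rather than of the pseudogene.

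Sequence is shown first for *D7Ertd143e*, since small RNAs are cut from its locus. It was named as the marker of the group and is the host locus of the miR-290 to miR-295 microRNA cluster, which is characteristic of pluripotent cells. The files place it at chr7:3218784-3221015 on the plus strand, as 1 transcript of 2232 bases. The promoter window from RefSeq (GRCm38.p6, the same build as mm10) covers chr7:3218534-3218833 on the plus strand and already contains the *Mir290a* hairpin, shown in capitals, which begins 158 bases before the start of the deposited record.
*D7Ertd143e* promoter window: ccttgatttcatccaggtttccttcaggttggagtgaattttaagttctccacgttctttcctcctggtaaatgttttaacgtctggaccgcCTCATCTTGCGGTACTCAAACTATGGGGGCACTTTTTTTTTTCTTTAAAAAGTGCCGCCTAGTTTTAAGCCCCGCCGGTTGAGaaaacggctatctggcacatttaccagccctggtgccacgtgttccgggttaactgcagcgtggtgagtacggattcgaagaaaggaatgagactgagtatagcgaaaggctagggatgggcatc

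Of the mature microRNAs of the cluster, 6 of the 3′ arms encoded on the plus strand are given from RefSeq, to show the seeds for which the cluster is known; the miR-290a arm lies before the start of the deposited *D7Ertd143e* record and the other 5 inside it. They are written 5′ to 3′ with the seed (bases 2 to 8), which pairs with target messages, in capitals.
miR-290a-3p: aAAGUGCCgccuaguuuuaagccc
miR-291a-3p: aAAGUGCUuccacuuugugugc
miR-291b-3p: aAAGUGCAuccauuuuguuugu
miR-293-3p: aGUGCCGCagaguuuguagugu
miR-294-3p: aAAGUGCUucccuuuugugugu
miR-295-3p: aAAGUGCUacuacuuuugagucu
miR-291a-3p, miR-294-3p and miR-295-3p share 1 seed, the miR-290a-3p and miR-291b-3p seeds differ from it at the last base, and the miR-293-3p seed is another word. The mature microRNAs were not measured by these libraries. Of 11 hairpin symbols of the cluster that were looked up, 4 have records of their own in the files (*Mir290a*, *Mir290b*, *Mir291b* and *Mir293*), at 0 to 0.56 RPKM.

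*D7Ertd143e* was at 18.1 and 17.3 RPKM in the DMSO samples, 12 and 11.3 RPKM at 25 nM and 11.7 and 11 RPKM at 1 µM. Both DMSO samples lay above all 4 RA samples, and the 2 doses overlapped. The log2 change was −0.61 (SE 0.0604) at 25 nM, with an adjusted p of 4.5e-22 (the likelihood ratio test of edgeR, Benjamini-Hochberg over 15143 genes), and −0.65 (SE 0.0605, adjusted p = 4.1e-25) at 1 µM. Between the doses it was −0.04 (adjusted p = 0.85). It was the only member with a DMSO mean over 7 RPKM and a log2 change below −0.6, and it met both at either dose. GENCODE draws an exon of *Nlrp12*, on the opposite strand, across the locus. The *Nlrp12* record in the files begins outside it and stood at 0.174 to 0.322 RPKM.

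Levels covered a wide range. The median member had a mean of 5.22 RPKM (quartiles 2.33 and 22.3), against 10.1 RPKM for the 10498 coding genes past the same thresholds; 154 members were between 1 and 10 RPKM, 69 between 10 and 100, 10 between 100 and 1000, and 5 above 1000. Just below the RPKM threshold stood *1700001L05Rik* (0.973), *C430049B03Rik* (0.976) and *D030028A08Rik* (0.987), and just above it *A630072M18Rik* (1.00), *4933407K13Rik* (1.03) and *Gm16386* (1.05). On counts, *Gm9776* fell short with 594 and *Toporsos* passed with 621. Lengths ran from 237 to 83437 bases with a median of 1852.

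**Figure D1:**
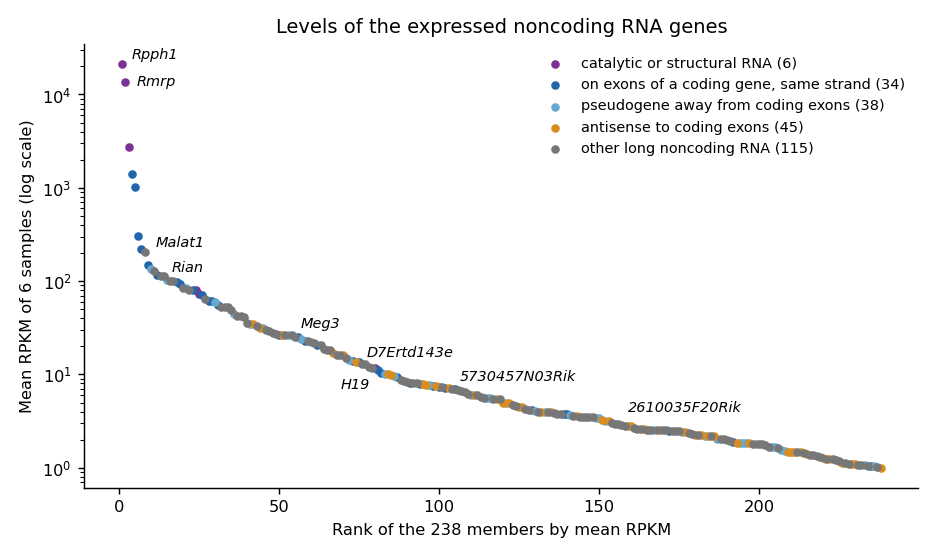
Mean RPKM over the 6 samples (y axis, log scale) of the 238 members in rank order (x axis), coloured by class. The levels fall from 21119 RPKM for *Rpph1* to 1.00 RPKM, and 154 members lie between 1 and 10 RPKM.

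Among the members, the catalytic RNAs led the ranking. *Rpph1*, the RNA subunit of RNase P, which trims tRNA precursors, was at 20511 and 21876 RPKM in DMSO, 22346 and 20041 RPKM at 25 nM, and 19322 and 22619 RPKM at 1 µM. *Rmrp*, the RNA of RNase MRP, which acts in ribosomal RNA processing, ranged from 12322 to 15180 RPKM. These 2 genes held 50.9% of the members' counts, and neither passed the test at either dose (adjusted p = 0.99 and 0.15 at 25 nM, 0.87 and 0.65 at 1 µM). Values of RNAs this short in a fragmented library depend on fragment length, so they are compared here between conditions and not with other genes. *Terc*, the template RNA of telomerase, was at 73.3 and 81.0 RPKM in DMSO, 79.4 and 69.4 RPKM at 25 nM and 70.5 and 65.8 RPKM at 1 µM. It passed at 1 µM (log2 change −0.18, adjusted p = 0.069), a call lost without DMSO replicate 2 or 1 µM replicate 2. Between *Rmrp* and *Terc* in level came, among others, *Gm15772* and *Gm12191*, which the files place on the ribosomal protein genes *Rpl26* and *Rpl30*, and the nuclear speckle RNA *Malat1* at 182 to 220 RPKM in the 6 samples. *Nutf2-ps1* and *Gm1821*, placed on *Nutf2* and *Ubb*, had means of 221 and 148.5 RPKM.

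At 25 nM RA, 19 of the 238 members (7.98%) were called at an adjusted p under 0.1, 6 higher and 13 lower; the background over all genes tested was 8.05% in total, 4.5% higher and 3.55% lower. At 1 µM, 44 members (18.5%) were called, 7 higher and 37 lower, against a background of 19.7% in total, 8.54% higher and 11.2% lower. The total shares were near the background at both doses. Coding genes past the same thresholds were called in 8.66% and 22.1%. The quasi-likelihood test called 12 members at 25 nM (background 6.91%) and 41 at 1 µM (background 19.2%). The changes of the members were small: none of the 238 passed a fold of 2 at any contrast. This says nothing of the genes taken out by name or by level. *Platr7*, a listed gene below the thresholds with 55 summed counts, was called higher at both doses by the likelihood ratio test. Its log2 changes were 2.12 (adjusted p = 0.0057) and 2.05 (adjusted p = 0.0048). From the same list, that test called *Crnde* lower at both doses (−0.80, adjusted p = 0.002, and −0.45, adjusted p = 0.095). It called *Lincpint* lower at 1 µM (−0.89, adjusted p = 0.013). Other listed genes below the thresholds were also called, and not all are given. The median absolute log2 change of the called members was 0.36 at 25 nM and 0.31 at 1 µM. The median over all members was −0.02 and −0.04, where that of all tested genes was 0.00 at both doses. The 2 doses share the control pair; 12 members were called at both, 7 at 25 nM only and 32 at 1 µM only, and of those 32 the direct comparison of the doses called 4. Single libraries weighed on these counts. Fewer members were called at both doses without DMSO replicate 2, and fewer at 25 nM without 25 nM replicate 2. More were called at 1 µM without 1 µM replicate 2. Such fits leave 1 sample in a group, and their share called over all genes is not given here.

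**Figure D2:**
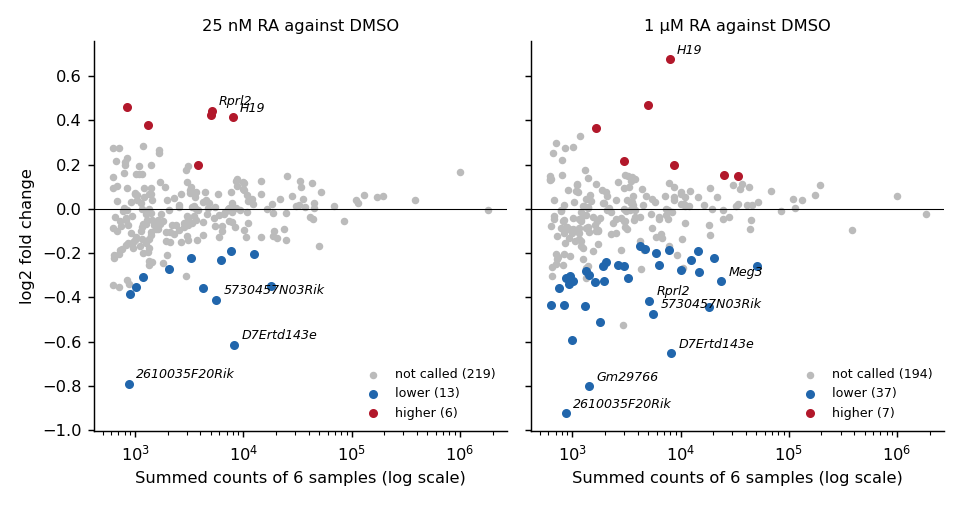
Log2 change against DMSO (y axis) of each member by its counts summed over the 6 samples (x axis, log scale), with 25 nM RA on the left and 1 µM RA on the right, and calls coloured by direction. Most members lie near 0; *D7Ertd143e* is at −0.61 and −0.65, *H19* at 0.41 and 0.68, and the calls at 1 µM number 7 higher and 37 lower.

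Precision was lower for these genes than for coding genes. The median SE of a log2 change was 0.0953, against 0.0627 for coding genes past the same thresholds, and the median member had 2728 counts over the 6 samples against 7862. Duplicates differed by a median of 0.0926 on the log2 scale in DMSO, 0.0937 at 25 nM and 0.107 at 1 µM. They differed by more than 1.5-fold for 2, 1 and 3 members, with *Gm38431* widest, at 2.35-fold between the DMSO dishes.

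Among members beside developmental regulators, *5730457N03Rik* fell at both doses. RefSeq calls it *Evx1os*. It lies at chr6:52308389-52314832 on the minus strand, opposite *Evx1*, a homeobox gene of the primitive streak, with starts 1334 bases apart and 73 bases antisense to *Evx1* exons. It was at 8.74 and 8.47 RPKM in DMSO, 6.34 and 6.63 RPKM at 25 nM and 6.12 and 6.34 RPKM at 1 µM, so that both DMSO samples lay above all RA samples. The log2 change was −0.41 (SE 0.0641, adjusted p = 1e-08) at 25 nM and −0.47 (SE 0.0644, adjusted p = 8.8e-12) at 1 µM. *Evx1* itself was at 10.1 and 10.04, 6.37 and 6.15, and 5.73 and 5.46 RPKM in the 3 groups, with log2 changes of −0.70 (adjusted p = 4.6e-26) and −0.86 (adjusted p = 6.3e-39). Whether counting used strand is not given in the sources used here, so reads in the antisense stretch cannot be assigned with certainty to either gene.

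*2610035F20Rik* had the largest log2 changes against DMSO of all called members. It starts 236 bases from *Zic2*, a zinc finger gene of the early neural plate, runs the other way (chr14:122470377-122475199, minus strand) and shares no exon with it. Its samples were at 4.38 and 3.56 RPKM in DMSO, 2.65 and 2.02 RPKM at 25 nM and 1.76 and 2.45 RPKM at 1 µM. DMSO lay above both RA groups, which overlapped. It fell by 0.79 (SE 0.162, adjusted p = 4.1e-05) and by 0.92 (SE 0.165, adjusted p = 4.4e-07) on the log2 scale. *Zic2* was at 32.3 and 29.7, 21.5 and 21.2, and 19.2 and 17.4 RPKM, with log2 changes of −0.54 (adjusted p = 1.4e-17) and −0.77 (adjusted p = 4.1e-35).

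Of the members not lying on coding exons of their own strand, 71 had a tested coding gene whose start was within 5000 bases, 64 of them on the opposite strand. Of the 71, 3 members and 5 coding genes were called at 25 nM, and 8 members and 16 coding genes at 1 µM (background over all genes 8.05% and 19.7%), while both partners were called in 2 pairs at each dose, those of *Zic2* and *Evx1*, in the same direction. Across the 71 pairs, which share libraries and in part a start region, Pearson's r of the 2 log2 changes was 0.494 (Spearman's rho 0.246) at 25 nM and 0.446 (0.214) at 1 µM. Without the *Zic2* and *Evx1* pairs these values were 0.215 (0.178) and 0.122 (0.144). In another pair, with starts 125 bases apart, *Lhx1* was called lower at both doses (log2 changes −0.35 and −0.51). Its neighbour *Lhx1os* was not called (−0.21, adjusted p = 0.68, and −0.08, adjusted p = 0.83). For the 70 members with a coding start between 5000 and 50000 bases away, 8 and 14 members and 7 and 17 coding genes were called at 25 nM and 1 µM. Both partners were called in 4 pairs at each dose, in the same direction in 3 of them at 25 nM and in all 4 at 1 µM. For these 70 pairs r was 0.236 (0.236) and 0.247 (0.348).

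**Figure D3:**
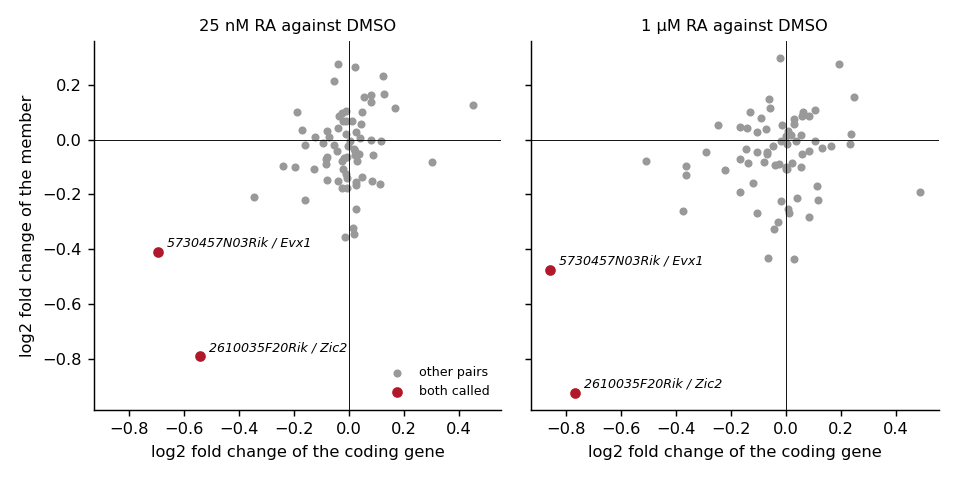
Log2 change against DMSO of the coding neighbour (x axis) and of the member (y axis) for the 71 pairs whose starts lie within 5000 bases, at 25 nM RA (left) and 1 µM RA (right). The *Zic2* and *Evx1* pairs, in red because both partners were called, sit apart at the lower left, and the other pairs gather around 0.

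The imprinted noncoding RNAs, which are expressed from 1 parental allele, had calls in both directions, 1 of 6 at 25 nM and 4 of 6 at 1 µM (background 8.05% and 19.7%). On that list *H19* was called higher at both doses, *Meg3*, *Kcnq1ot1* and *Nespas* lower at 1 µM, and *Rian* and *Snhg14* were not called. The list's median log2 change was −0.09 at 25 nM and −0.10 at 1 µM, against 0.00 for all genes tested.

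*H19*, the maternally expressed RNA beside *Igf2* (chr7:142575530-142578146, minus strand), was at 9.27 and 10.6 RPKM in DMSO, 13.2 and 13.3 RPKM at 25 nM and 14.9 and 17 RPKM at 1 µM. The 3 groups did not overlap and stood in the order of dose. Its log2 change was 0.41 (SE 0.0747, adjusted p = 1.6e-06) at 25 nM and 0.68 (SE 0.0737, adjusted p = 4.1e-18) at 1 µM, and 0.26 (SE 0.0724, adjusted p = 0.018) between the doses. The last call was lost without either 25 nM replicate or without 1 µM replicate 2. *Igf2*, at 1.27 to 1.71 RPKM, was not called (adjusted p = 0.55 and 0.87). The estimation split *H19* reads between 2 transcripts unevenly in the 1 µM duplicates, 9.14 and 5.77 RPKM in 1 and 14.5 and 2.53 RPKM in the other, so only the sum is used.

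*Meg3*, the maternally expressed RNA of the *Dlk1* domain on chromosome 12, was at 28.2 and 28.7 RPKM in DMSO, 27.3 and 26.9 RPKM at 25 nM and 22.8 and 23.4 RPKM at 1 µM. The 1 µM samples lay below the other 4. The log2 change was −0.33 (SE 0.0493, adjusted p = 1.6e-09) at 1 µM and −0.09 (adjusted p = 0.38) at 25 nM, and the doses differed by −0.24 (SE 0.0497, adjusted p = 0.00047). *Rian*, from the same cluster, was at 110 to 116 RPKM in all samples, with log2 changes of 0.04 (adjusted p = 0.83) and 0.05 (adjusted p = 0.59). *Dlk1*, a Notch pathway ligand, was at 0.42 to 0.50 RPKM and was not called. *Kcnq1ot1*, an antisense RNA that silences neighbours in cis, had a log2 change of −0.26 (adjusted p = 0.0047; lost without DMSO replicate 2) at 1 µM, and *Nespas*, of the *Gnas* domain, −0.20 (adjusted p = 0.028; lost without DMSO replicate 2 or 1 µM replicate 2).

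*Gm29766* (chr5:110429875-110431955, minus strand) was called lower at 1 µM. It was at 3.14 and 3.11 RPKM in DMSO, 2.87 and 2.47 RPKM at 25 nM and 1.77 and 1.84 RPKM at 1 µM. The 1 µM samples lay below all the others. The log2 change was −0.80 (SE 0.113, adjusted p = 2.8e-11) at 1 µM and −0.24 (adjusted p = 0.19) at 25 nM, and the direct difference of the doses was −0.56 (SE 0.117, adjusted p = 0.00031). *Gm29766* lies within the span of the coding gene *Fbrsl1*, on the same strand. *Fbrsl1* had log2 changes of −0.26 (adjusted p = 0.018) at 1 µM and −0.03 (adjusted p = 0.94) at 25 nM. Whether reads of *Fbrsl1* entered the counts of *Gm29766* was not tested.

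**Figure D4:**
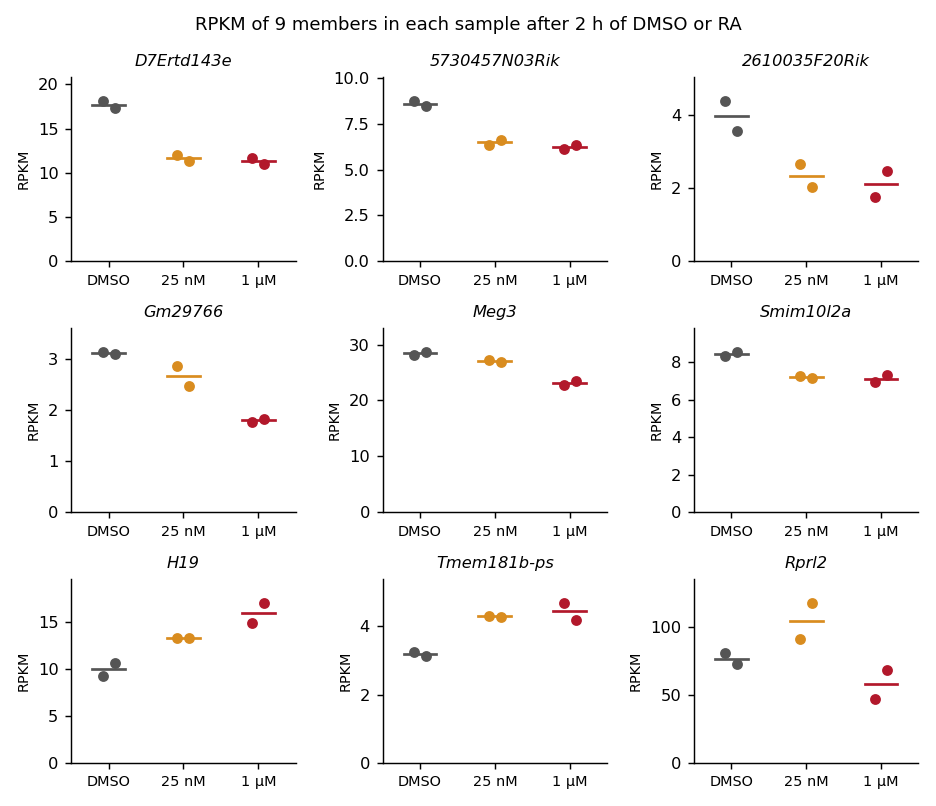
RPKM of 9 members in each sample of DMSO, 25 nM RA and 1 µM RA, 1 panel per gene, with the RPKM on the y axis from 0, each duplicate as a point and the mean as a line. *D7Ertd143e* drops from 17.3 and 18.1 RPKM to between 11 and 12 RPKM at both doses, whereas the lowest *Meg3* and *Gm29766* values are those at 1 µM.

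*Rprl2*, an RNase P RNA-like gene of 238 bases (chr3:22251370-22251607, plus strand), was the only member called in opposite directions by the doses. Its samples were at 80.9 and 72.6 RPKM in DMSO, 91.1 and 118 RPKM at 25 nM and 47.2 and 68.6 RPKM at 1 µM. The groups did not overlap, but the duplicates of each RA dose stood far apart. The log2 change was 0.44 (SE 0.129, adjusted p = 0.013) at 25 nM, lost without DMSO replicate 2 or 25 nM replicate 2, and −0.41 (SE 0.132, adjusted p = 0.015) at 1 µM, lost without DMSO replicate 1 or 1 µM replicate 1. The difference between the doses was −0.86 (SE 0.131, adjusted p = 6e-08) and stayed called whichever replicate was left out. Of the 241 words of 50 bases (the read length) in its GENCODE transcript, 0 were shared with *Rpph1* and 7 with *Rprl3*.

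The comparison of the doses called 7 members (2.94%), 2 higher and 5 lower at 1 µM, against a background of 3.41% in total, 0.792% higher and 2.62% lower; the quasi-likelihood test called 6 members (background 2.22%). Beside those given above they were *Gm5512*, *Gm10653* and *Gm5424*. The pseudogene *Gm5512* was at 1.44 and 1.90 RPKM in DMSO, 2.16 and 2.39 RPKM at 25 nM and 1.47 and 1.42 RPKM at 1 µM, and the 25 nM pair was the highest. Its difference between doses was −0.66 (SE 0.15, adjusted p = 0.0013), lost without 25 nM replicate 2, and its change at 25 nM was 0.46 (adjusted p = 0.027), lost without DMSO replicate 1 or 25 nM replicate 2. These values sum records on chromosomes 10 and 19. In the likelihood ratio test per transcript, the dose difference was −0.89 (adjusted p = 0.35) for chromosome 10 and −0.22 (adjusted p = 0.99) for chromosome 19. *Gm10653*, another pseudogene, was at 48.2 and 40.8 RPKM in DMSO, 51.6 and 46.1 RPKM at 25 nM and 36.4 and 42.2 RPKM at 1 µM, and its 1 µM samples overlapped only those in DMSO. It differed by −0.32 (SE 0.078, adjusted p = 0.0051) between the doses, lost without 25 nM replicate 1 or 1 µM replicate 1.

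A pair of pseudogenes of *Tmem181a*, which codes for a membrane protein, was higher with RA. *Tmem181b-ps* (chr17:6439002-6450994, minus strand) was at 3.25 and 3.13 RPKM in DMSO, 4.32 and 4.28 RPKM at 25 nM and 4.69 and 4.19 RPKM at 1 µM, and both DMSO samples lay below all RA samples. Its log2 change was 0.43 (SE 0.0738, adjusted p = 4.2e-07) at 25 nM and 0.47 (SE 0.0735, adjusted p = 6.7e-09) at 1 µM. *Tmem181c-ps* rose by 0.36 (SE 0.106, adjusted p = 0.0059) at 1 µM, lost without DMSO replicate 2 or 1 µM replicate 1, and was at 0.25 (adjusted p = 0.17) at 25 nM. The coding *Tmem181a* rose by 0.32 (adjusted p = 0.0025) and 0.33 (adjusted p = 0.00079), the latter lost without 1 µM replicate 1. The pseudogenes shared 36% and 61.8% of their 50-base words with *Tmem181a*, so reads can be split between the 3 genes by the estimation.

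The same caution holds for members placed on coding exons, where the estimation divides reads between a pseudogene record and its parent. Over 15 such pairs the share of the pseudogene's 50-base words also found in the parent ran from 59.0% to 100%, with a median of 83.2%. Because the files place such records at the position of the parent, whether differing bases entered the division of reads is not known. A stretch of 120 bases of *Gm12669* and *Glrx3* transcripts (GENCODE vM21), the latter a glutaredoxin, is given as an example. It was picked from stretches of the *Glrx3* coding sequence with at most 4 differing bases, so it does not measure how alike the whole pair is. Over the whole *Gm12669* transcript, 77.3% of the 50-base words were also found in *Glrx3*. The capitals mark the 4 bases that differ in the stretch.
*Gm12669*: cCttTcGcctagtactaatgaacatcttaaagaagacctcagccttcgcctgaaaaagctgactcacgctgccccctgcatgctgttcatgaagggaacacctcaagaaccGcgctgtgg
*Glrx3*: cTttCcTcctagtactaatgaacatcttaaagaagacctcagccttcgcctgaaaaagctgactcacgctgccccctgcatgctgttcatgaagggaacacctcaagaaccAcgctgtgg

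For the 14 members whose accession RefSeq places elsewhere, 12 had a larger RPKM than the coding gene on which they lie, and 8 had a log2 change of the opposite sign at 1 µM. *Oaz1-ps*, on *Oaz1*, the antizyme that limits polyamine synthesis, was at 70.8 and 97.0 RPKM in DMSO, 69.3 and 62.9 RPKM at 25 nM and 57.8 and 66.4 RPKM at 1 µM. Its DMSO duplicates differed by more than the group means did. Its log2 change was −0.35 (adjusted p = 0.015) and −0.44 (adjusted p = 0.00033), both lost without DMSO replicate 2 and the first also without 25 nM replicate 2, while the sum with *Oaz1* was at −0.10 (adjusted p = 0.464) and −0.08 (adjusted p = 0.454). *Gm12669* was called at 1 µM (0.15, adjusted p = 0.053; lost without DMSO replicate 2 or 1 µM replicate 1), and the sum with *Glrx3* was at 0.09 (adjusted p = 0.176). *Gm5424*, on the urea cycle gene *Ass1*, was called at 1 µM (0.20, adjusted p = 0.017; lost without DMSO replicate 2 or 1 µM replicate 1) and between the doses (0.19, adjusted p = 0.087; lost without 25 nM replicate 1 or 1 µM replicate 1). The sum of *Gm5424* and *Ass1* was called higher at both doses, by 0.18 (adjusted p = 0.0172) at 25 nM and 0.19 (adjusted p = 0.00526) at 1 µM, with a difference between the doses of 0.01 (adjusted p = 0.971).

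**Figure D5:**
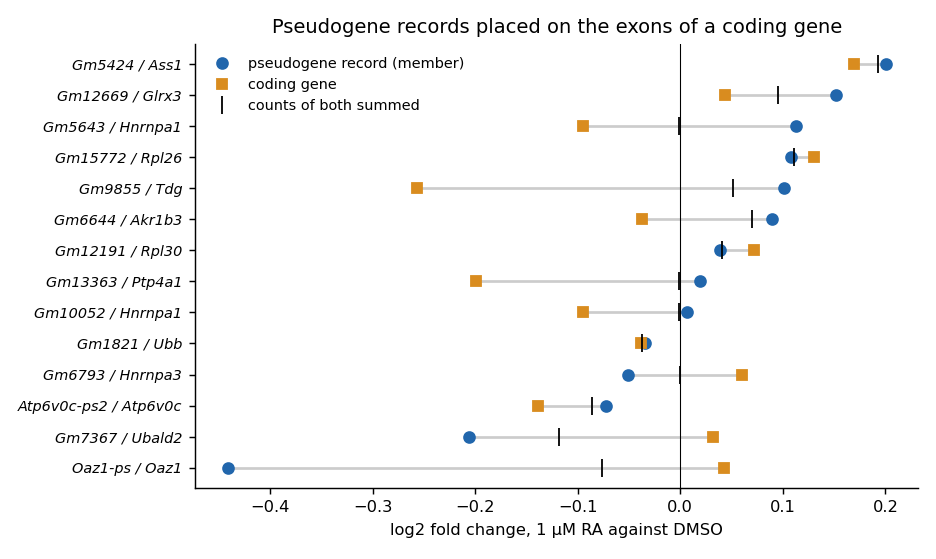
Log2 change at 1 µM RA against DMSO (x axis) of the 14 pseudogene records that RefSeq places elsewhere (circles), of the coding gene on which the files place them (squares) and of the counts of both summed (ticks), 1 pair per line. In 8 pairs circle and square have opposite signs, and *Oaz1-ps* stands at −0.44 beside a sum at −0.08. *Gm10052* and *Gm5643* both lie on *Hnrnpa1*, and their ticks show the same sum of *Hnrnpa1* with both records.

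By class, the 115 other long noncoding RNAs had 1 higher and 15 lower calls at 1 µM, the 45 antisense members 0 and 9, the 38 pseudogenes away from coding exons 4 and 7, the 34 members on coding exons 2 and 4, and the 6 catalytic or structural RNAs 0 and 2, beside the background of 8.54% higher and 11.2% lower. Smaller called decreases at 1 µM included *4930470H14Rik* (log2 change −0.27, adjusted p = 0.00054) and *Dpm1-adnp*, a readthrough of *Dpm1* and *Adnp* (−0.29, adjusted p = 0.00082), both lost without DMSO replicate 2. The pseudogene *E030024N20Rik* fell by 0.51 on the log2 scale (SE 0.119, adjusted p = 0.00029). *Smim10l2a*, which GENCODE lists as coding, was at 8.36 and 8.56 RPKM in DMSO, 7.30 and 7.15 RPKM at 25 nM and 6.95 and 7.31 RPKM at 1 µM. Its log2 change was −0.25 (SE 0.0615, adjusted p = 0.00057) at 1 µM and −0.23 (adjusted p = 0.0044) at 25 nM, the latter lost without DMSO replicate 2 or 25 nM replicate 2.

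The remaining named calls were small and were each lost when a single library was left out. At 25 nM, *Gm16973*, antisense to *Mphosph8*, was at 2.15 and 1.77 RPKM in DMSO and 2.42 and 2.73 RPKM with RA (log2 change 0.38, adjusted p = 0.025; lost without DMSO replicate 2 or 25 nM replicate 2). *Kis2* was at 0.20 (adjusted p = 0.096), lost on leaving out any of the 4 samples compared, as was *A930004D18Rik* at −0.38 (adjusted p = 0.057). GENCODE lists *A930004D18Rik* as coding. *C230091D08Rik*, antisense to the imprinted ubiquitin ligase gene *Ube3a*, was at −0.19 (adjusted p = 0.025; lost without DMSO replicate 1 or either 25 nM replicate). *A130077B15Rik* was called lower at both doses (−0.20, adjusted p = 0.05, lost without DMSO replicate 2 or 25 nM replicate 1; −0.23, adjusted p = 0.0073, lost without DMSO replicate 2). So were *9330020H09Rik*, antisense to *Ccnt1* (−0.35 and −0.33, adjusted p = 0.061 and 0.053), and *9930014A18Rik*, antisense to *Fam84b* (−0.27 and −0.24, adjusted p = 0.083 and 0.077); each of these calls was lost without DMSO replicate 1 and without at least 1 RA replicate. At 1 µM the pseudogenes *Gm3002* (0.15, adjusted p = 0.041; lost without DMSO replicate 1 or 1 µM replicate 1) and *BC002163* (0.21, adjusted p = 0.099; lost without either DMSO replicate or 1 µM replicate 1) were called higher.

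Of 21 listed host genes of small nucleolar RNAs, whose introns carry the small RNAs, 16 were members, and 0 of the 16 were called by the likelihood ratio test of edgeR at either dose (background 8.05% and 19.7%), by the quasi-likelihood test or DESeq2, or at an unadjusted p under 0.05. *Snhg11*, listed but not a member, was called lower at 1 µM (log2 change −0.28, adjusted p = 0.024), a call lost without DMSO replicate 1 or 1 µM replicate 2. The median log2 change of the 16 was −0.01 at 25 nM and 0.04 at 1 µM. *Snhg1* was at 128 to 133 RPKM in the 6 samples and *Gas5*, the host known from growth arrest, at 96.4 to 107 RPKM. Of the 10 members on the list of stem cell and developmental RNAs, *D7Ertd143e* and *5730457N03Rik* were lower at both doses, and the other 8, among them *2900097C17Rik* (*Norad*, which sequesters Pumilio proteins) and *Tug1*, were not called. The summed RPKM of the naive ESC markers, with *Nanog* at 18.1 to 20.8 RPKM, was 24 to 27.3 in the 6 samples, and 1 of the 5 was called higher at both doses. *Ftx*, the 1 member among 4 listed genes of the X inactivation centre, was at 2.44 to 2.63 RPKM and was not called. Of the listed genes below the thresholds, *Xist*, at 0.09 to 0.19 RPKM, was called lower at 1 µM (log2 change −0.63, adjusted p = 0.032). The quasi-likelihood test also called it (adjusted p = 0.07), and DESeq2 did not (adjusted p = 0.19). *Jpx*, at 0.36 to 0.55 RPKM, was called lower at 25 nM (−0.54, adjusted p = 0.048). It was not called there by the quasi-likelihood test (adjusted p = 0.11) or DESeq2 (adjusted p = 0.67). *Tsix* was not called at either dose. *Malat1* had log2 changes of 0.04 (adjusted p = 0.88) and −0.10 (adjusted p = 0.34).

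Promoter windows, from 250 bases before to 50 after the start, could be matched for 130 of the 238 members. A RARE-type direct repeat, in which each copy could be AGGTCA, the variant AGTTCA, the variant GGGTCA or the variant GGTTCA and the copies were spaced by 1, 2 or 5 bases, searched on both strands, was found in 0 of the 130, 20 of which were called, and in 193 of 32851 windows of all genes (0.588%). The single word AGGTCA was in 17 of 130 members' windows (13.1%), in 2 of the 20 called, and in 16.3% of all windows. These letters describe the windows only, and elements farther away were not searched.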

How the data were processed

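The authors sequenced ribosome-depleted, stranded total RNA of 6 samples as single reads, aligned them to mm10 and assigned them to transcripts with an expectation-maximization step; the submitters' processing notes name FastQC 0.11, TopHat2 2.0.13, Bowtie2 2.2.5.0 and Partek 6.6. The deposited values are estimated counts, which need not be whole, and RPKM per transcript, scaled by the authors to length and library size. Whether counting used strand is not given in the sources used here. Both were summed per gene. The counts were rounded, scaled by TMM, filtered with filterByExpr and fitted in edgeR 4.0.16 (R 4.3.3) as 1 model of 6 samples. The likelihood ratio test, as in the study's methods, was used with Benjamini-Hochberg adjustment over 15143 genes and calls at an adjusted p under 0.1. With duplicates, 3 residual degrees of freedom are shared by all groups, and the common biological coefficient of variation was 0.0351. The quasi-likelihood test and DESeq2 1.42.0 were alternatives, with others on scaling, filters, replicates and transcripts. The edgeR fit was tested on simulated counts. RPKM values were not tested.

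Named genes were *D7Ertd143e*, the 10 members with the highest mean RPKM, up to 10 called members per direction and contrast with the smallest adjusted p whose samples did not overlap, those nearest the RPKM threshold, the listed genes with the highest RPKM, and the nearest coding gene of a named member. Not all genes under this rule are given with values above. Members near the counts threshold or with the widest duplicates, and genes near or similar in sequence to a named member, were named after their values were seen. So were *Kcnq1ot1*, *Nespas*, *Snhg11*, *Platr7*, *Crnde*, *Lincpint*, *Lhx1os*, *Lhx1*, *Xist*, *Jpx*, *Tsix* and *Fgf8*. The members and lists were chosen with earlier results of these data known. Coding exons came from GENCODE vM21, positions and promoters from RefSeq GRCm38.p6, both of the same build as mm10. Some genes are not reported here.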

Additional observations from a re-analysis of the deposited data

Results flagged for a closer look

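For 7 members the change at 1 µM RA differed from that at 25 nM RA by a test of the dose difference itself (edgeR's likelihood ratio test, adjusted over all genes tested), which uses no DMSO sample in the contrast. The log2 difference of 1 µM and 25 nM was −0.86 for *Rprl2*, −0.66 for *Gm5512*, −0.56 for *Gm29766*, −0.32 for *Gm10653* and −0.24 for *Meg3*, and 0.19 for *Gm5424* and 0.26 for *H19*. By the quasi-likelihood test 6 of the 7 were called and *Gm5424* was not (adjusted p = 0.14). Groups of 2 are too small for a test of outlying samples.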

How the results depend on the processing

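The counts of members called were 19 at 25 nM, 44 at 1 µM and 7 between the doses. They were 12 at 25 nM by the quasi-likelihood test, 5, 17 and 3 by DESeq2 (the last among 194 members with an adjusted p), 12 and 29 at an adjusted p under 0.05, 5, 13 and 2 with counts per transcript, and 9 and 27 over the 148 members on no coding exon. Leaving out 1 replicate gave 10 to 16, 20 to 47 and 5 to 15; the last was highest without 1 µM replicate 2. Another scaling, filter, RPKM or count minimum, or only the samples compared, kept each count within 1.5 times. So did summing members with the coding gene at their position, chosen after seeing the data. Outside the main fit and the quasi-likelihood test, the share called over all genes is not given here. These counts are therefore not compared with a background. The replicate block gave 17, 41 and 6. Same-numbered samples correlated by −0.041, 0.048 and −0.062 in their deviations, so no effect shared by same-numbered samples was seen. Whether the numbers mark dishes handled together cannot be told from these values. Of 48 calls on named members, 13 were kept under all 14 alternatives and 0 values reversed. The limits are duplicates of 1 line, reads shared between similar sequences, and low counts of many members, at which smaller changes were not detectable.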
